A study of Mus musculus with 6 samples.

Results

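Adiponectin (Adipoq), a hormone that fat cells secrete, gave a signal 4.51-fold higher in mouse embryonic stem cells given an siRNA against BRG1 than in cells given a control siRNA. The account that follows sets Adipoq beside its 2 receptors, Adipor1 and Adipor2, and beside 7 genes of the fat cell programme: the transcription factors Pparg and Cebpa, the lipid proteins Fabp4 and Lpl, and the secreted factors Lep, Cfd and Retn. These 10 genes were taken by symbol, out of 27962 gene names on the array, and all 19 of their probes were read. The list was chosen by the processed signals of the same 2 groups, with the Adipoq difference already known, so the values of the 10 genes are a description and carry no test.

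Adiponectin is released almost only by mature adipocytes in the adult animal. It belongs to the C1q/TNF family of secreted proteins and acts through the seven-pass membrane receptors Adipor1 and Adipor2, with AMPK and PPAR-alpha signalling downstream. Its gene is a late target of Pparg and Cebpa, the nuclear receptor and the bZIP factor that drive fat cell formation, and in maturing adipocytes it is switched on together with Fabp4, Lpl, Cfd, Lep and Retn. BRG1, encoded by Smarca4, is an ATPase subunit of the SWI/SNF (BAF) chromatin remodelling complexes, and embryonic stem cells are the cultured pluripotent cells of the early embryo.

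The cells had an F1 genetic background of the strains 129 and C57BL/6. Each group held 3 arrays: the control group received scrambled siRNA and the other group siRNA against BRG1, both for 48 h. The labels do not say whether the replicates were separate cultures, so the p-values below measure the spread between these samples, which may be technical. Cy3-labelled cRNA from 500 ng of total RNA was read on 1-colour Agilent arrays, and in such bulk RNA fewer cells of a type and less RNA per cell cannot be told apart.

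Signals are given in linear units as the scanner software processed them. Differences are on the log2 scale after each array's 75th percentile was subtracted (1960 to 2330 linear units over the 6 arrays), with the standard error (SE) of a limma fit. The 3 control arrays and replicate 1 of BRG1 siRNA shared 1 slide, and replicates 2 and 3 of BRG1 siRNA were on another, so each difference was also taken with the slide as a block, which leaves the comparison within the first slide. A probe is called detected where the software marked it as well above background, which 60.9% to 75.3% of the spots on an array were. The 12 stem cell markers tested, Pou5f1, Sox2 and Nanog among them, were detected on all 6 arrays. Markers of other cells were detected on all 6 arrays for 13 of 16 fibroblast, 6 of 8 endothelial, 6 of 12 endoderm, 8 of 12 trophoblast and 2 of 10 macrophage genes, and on no array for 1, 2, 2, 2 and 1 of them.

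The probe for the targeted gene read 39300, 47900 and 38900 in the control replicates 1 to 3 and 29200, 27000 and 24000 with BRG1 siRNA. Smarca4 thus stood at 65.8% of its control level (log2 difference −0.60 ± 0.07 SE), and at 54.7% and 66.2% on its other 2 probes. In limma's fit over 17758 genes its adjusted p was 0.00365, and 0.293 when arrays were scaled on spike-in probes instead (difference −0.38 ± 0.21 SE).

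The Adipoq signal comes from a single probe of 60 bases at chr16:22816125-22816184 on the plus strand of mm7, the build named in the scanner files. The stretch is as long as the probe, so it crosses no intron in that build. The probe and the 300 bases around the annotated start of the gene are shown because they are the letters through which Adipoq was measured and those that its start holds. The promoter is from RefSeq at chr16:23146286-23146585, plus strand, of GRCm38.p6, with 250 bases before and 50 after the start, and capitals mark the CCAAT box on either strand.
Adipoq probe: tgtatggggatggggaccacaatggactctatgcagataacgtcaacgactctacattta
Adipoq promoter: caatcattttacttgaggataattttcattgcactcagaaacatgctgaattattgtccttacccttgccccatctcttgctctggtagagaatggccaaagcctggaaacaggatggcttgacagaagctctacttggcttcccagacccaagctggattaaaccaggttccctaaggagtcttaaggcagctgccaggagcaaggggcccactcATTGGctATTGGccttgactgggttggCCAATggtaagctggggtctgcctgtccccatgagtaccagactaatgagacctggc

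The Adipoq probe shared a run of 16 bases with 1 of the 41173 other probes, that for the olfactory receptor Olfr910. That probe was not detected on any array. Only probes of the array were compared, so binding of other transcripts to the Adipoq probe was not tested.

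CCAAT, the letters of the box that NF-Y binds, occurred 3 times in the Adipoq promoter, with first bases 34, 27 and 7 before the start, the first pair on the opposite strand. None of the 3 overlapped another motif that was searched. The same 5 letters occur on either strand of 37.4% of the 32851 RefSeq promoters of this length. Promoters were found for 8 of the 10 genes, 11 in all. CCAAT was present in 4 of the 11, which belong to Adipoq, Adipor1 and Pparg. The full repeat AGGTCANAGGTCA, to which PPAR-gamma and RXR bind as a pair, was in none of the 11 and in 0.0396% of all promoters. The single unit of that repeat, AGGTCA, was in 2 promoters of Pparg and in 16.3% of all. TTGCGCAA, a C/EBP sequence, was in the promoter of Lep (0.183% of all). CACGTG was in none of the 11 (7.15% of all), and TATAAA was in promoters of Cebpa and Pparg (13.6% of all).

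Adipoq read 207, 195 and 206 in the control replicates and 896, 859 and 903 with BRG1 siRNA. All 6 arrays detected it, and the lowest BRG1 siRNA array stood far above the highest control. After scaling, its log2 level was −3.39 ± 0.18 (SD, n = 3) in controls and −1.21 ± 0.07 (SD, n = 3) with BRG1 siRNA, a difference of 2.17 ± 0.11 (SE). The lowest signal that the software marked as well above background lay between 38.7 and 60.6 on these arrays, so Adipoq was a dim but detected transcript in the control cells. Within the first slide the difference was 2.12, or 4.36-fold, and leaving out each array in turn moved it between 2.08 and 2.25.

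**Figure D1:**
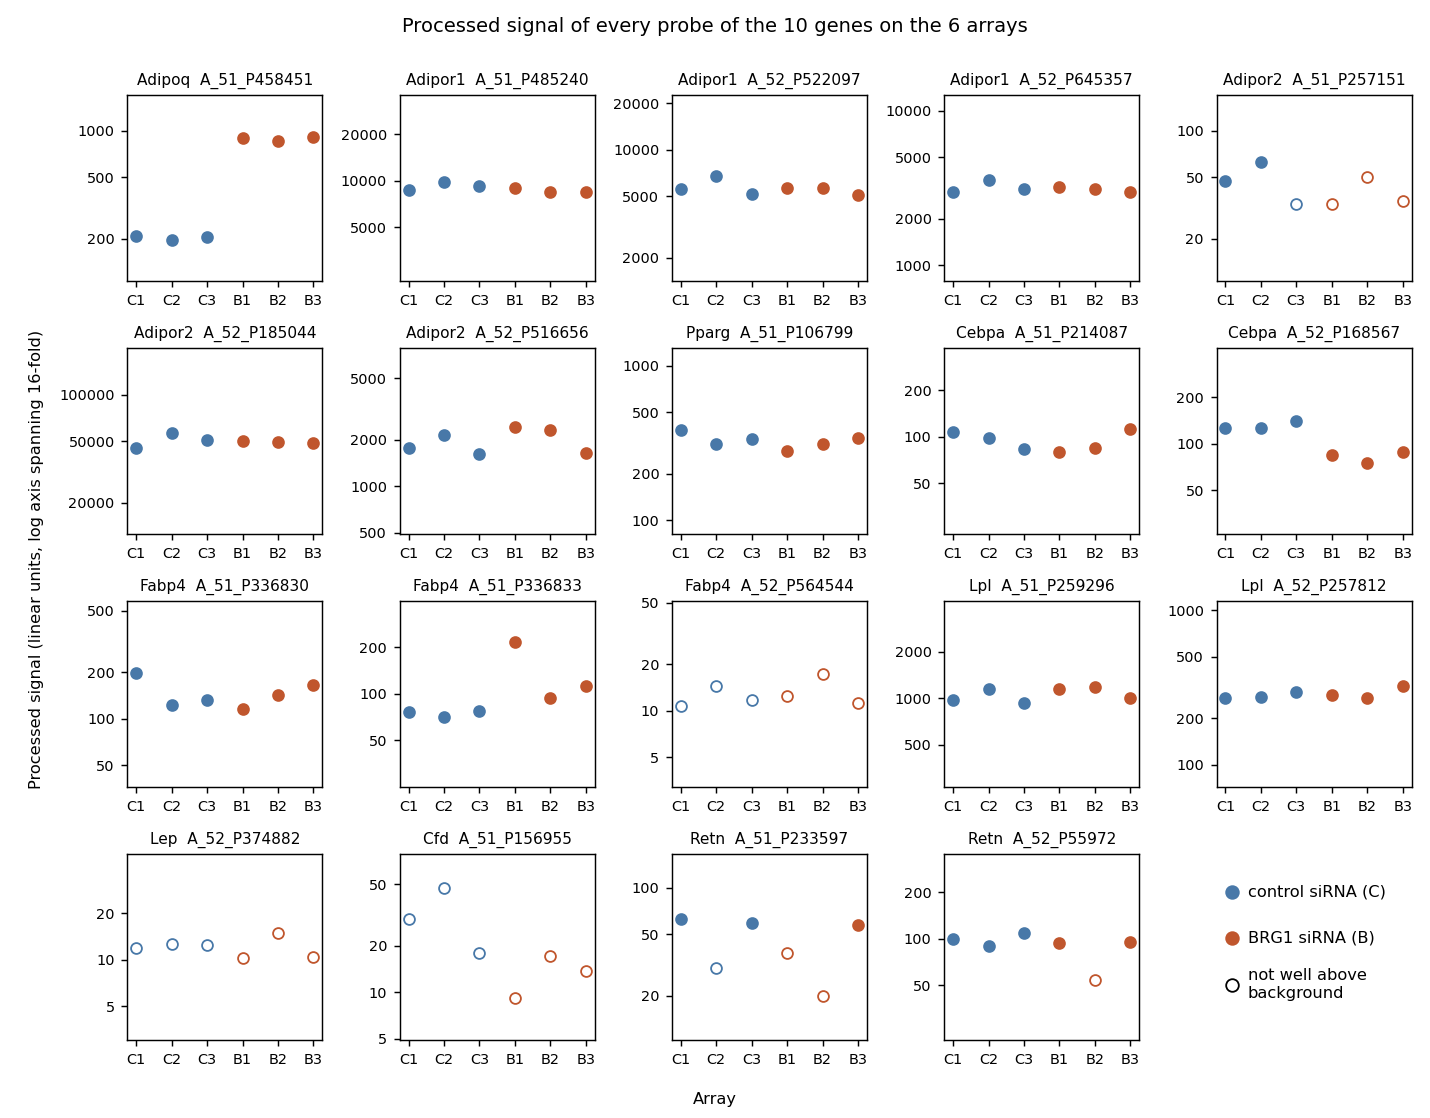
Processed signal of the 19 probes of the 10 genes on the 3 control siRNA arrays (C1 to C3) and the 3 BRG1 siRNA arrays (B1 to B3), each panel on a log axis that spans the same range of fold, open circles where the probe was not well above background. Adipoq lies at 195 to 207 units on the controls and at 859 to 903 with BRG1 siRNA, while most other probes lay level across the 6 arrays.

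The receptors were close to their control level. The brightest probe of Adipor1 read 8670, 9760 and 9260 in controls and 9000, 8440 and 8450 with BRG1 siRNA, so the groups overlapped. Its difference was −0.05 ± 0.05 (SE), and the other 2 probes of Adipor1 gave −0.04 ± 0.08 and 0.00 ± 0.05. The brightest probe of Adipor2 read 45200, 56200 and 50600 in controls and 50300, 49000 and 48400 with BRG1 siRNA, a difference of 0.01 ± 0.05. A second probe of Adipor2 overlapped between groups with a difference of 0.24 ± 0.16, and the third was detected on 2 control arrays and on no BRG1 siRNA array.

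The transcription factors above adiponectin did not share its difference. Pparg is on the array as 1 probe printed in 10 spots. Their mean read 383, 310 and 334 in controls and 279, 312 and 340 with BRG1 siRNA, and the groups overlapped. The difference was −0.09 ± 0.18, and −0.31 within the first slide, where replicate 1 of BRG1 siRNA was the lowest of the 4 arrays. On a single array the kept spots of Pparg spread as widely, from 229 to 387 units on control replicate 2 and from 210 to 379 on BRG1 siRNA replicate 1.

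Cebpa had 2 probes that disagreed. The first, at chr7:32011212-32011271 of mm7, read 126, 126 and 139 in controls and 84.4, 74.5 and 88.2 with BRG1 siRNA, with every BRG1 siRNA array below every control. Its difference was −0.62 ± 0.12, or 1.54-fold lower, and −0.65 within the first slide. The second probe of Cebpa lies about 1 kb upstream and read 107, 97.2 and 83.5 in controls and 79.9, 84.7 and 112 with BRG1 siRNA. On that probe the groups overlapped, with a difference of −0.02 ± 0.21, and the mean of both probes gave −0.32. The first probe's difference shrank to −0.30 when the background was corrected with normexp, a model-based subtraction, in place of the scanner software's own.

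Fabp4, the fatty acid carrier of fat cells, had 3 probes with 3 patterns. The one with the highest mean signal read 198, 123 and 131 in controls and 116, 142 and 166 with BRG1 siRNA, and its groups overlapped (difference −0.03 ± 0.30). The second read 75.9, 71.2 and 77.1 in controls and 216, 94.3 and 113 with BRG1 siRNA. All 3 BRG1 siRNA arrays were above the controls on that probe, most of all replicate 1, and the difference of 0.86 ± 0.31 became 0.54 without that array and 1.51 within the first slide, where it is the only BRG1 siRNA array. The third Fabp4 probe was not detected on any array. The detected probes of Fabp4 thus gave no common direction. The mean over its 3 probes, the undetected one included, was 0.34 ± 0.10 (SE).

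Lpl, the lipase that releases fatty acids from lipoproteins, read 971, 1150 and 937 in controls and 1150, 1180 and 1010 with BRG1 siRNA. These linear values overlap. After scaling to the 75th percentile every BRG1 siRNA array was above every control, by a mean of 0.17 ± 0.08. The second Lpl probe gave 0.10 ± 0.13 with overlapping groups, and −0.01 within the first slide.

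The secreted factors of fat cells other than adiponectin were at or near background. Leptin (Lep), the hormone that reports fat stores, is printed in 10 spots. Its mean ran from 12 to 12.7 in controls and from 10.3 to 14.9 with BRG1 siRNA, and none of the kept spots was well above background on any array. Replicates 2 and 3 of BRG1 siRNA each had 2 Lep spots that the software marked as outliers, up to 136 and 75.1 units, which were left out. Cfd, the complement factor adipsin, read 29.8, 47.6 and 18.1 in controls and 9.26, 17.3 and 13.7 with BRG1 siRNA, not well above background on any array, so no fold is given. Resistin (Retn) read 98.9, 89.2 and 108 in controls and 93.7, 53.8 and 95.3 with BRG1 siRNA, with overlapping groups and a difference of −0.29 ± 0.27. Replicate 2 of BRG1 siRNA, the array with the lowest Retn signal, did not detect it. The second probe of Retn was detected on 2 control arrays and 1 BRG1 siRNA array. It shares a run of 16 bases with 1 probe of another gene, 1810007M14Rik, which was detected on all 6 arrays.

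**Figure D2:**
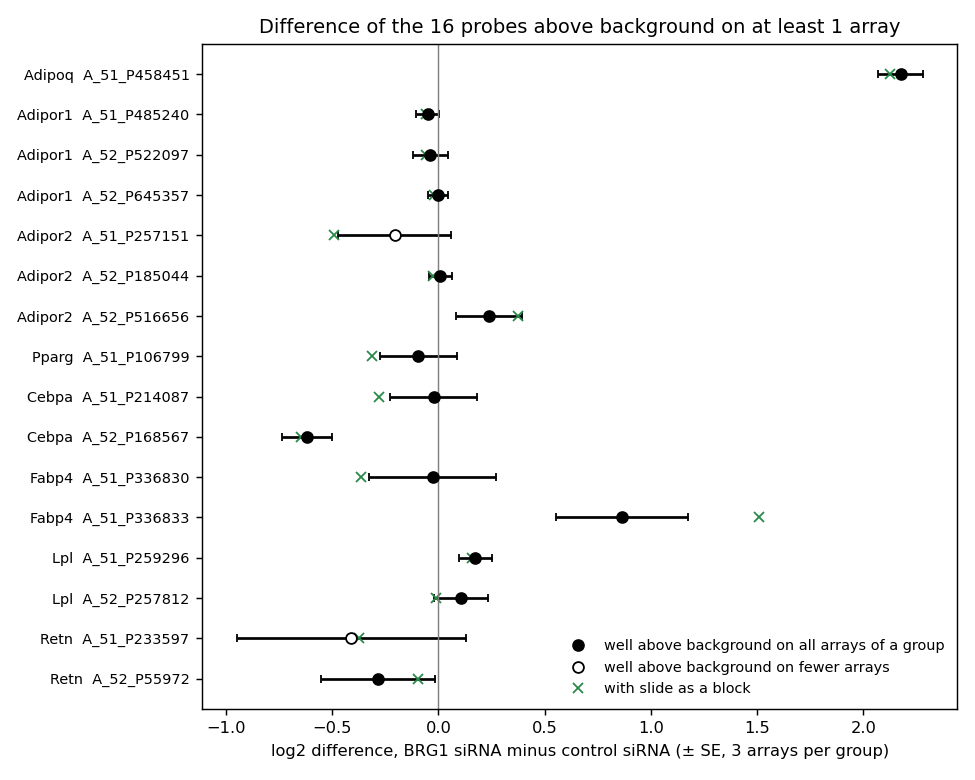
Log2 difference between BRG1 siRNA and control siRNA (dots, ± SE, 3 arrays per group) for the 16 probes of the 10 genes detected on at least 1 array, with the same difference taken with the slide as a block (crosses). Adipoq stands at 2.17, the nearest probe is the second of Fabp4 at 0.86, and the other probes lie between −0.62 and 0.24.

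Of the 19 probes, 14 were detected on every array of at least 1 group, the filter for the fit over all genes, which uses for each gene the probe with the highest mean signal. That left 8 of the 10 genes in the fit, without Lep and Cfd. By the rule of a Benjamini-Hochberg adjusted p under 0.05, 2 of the 8 were called, Adipoq as higher and Cebpa as lower, where 23.3% of all genes tested were called (9.87% higher and 13.4% lower). Groups did not overlap for 3 of the 8, Adipoq, Cebpa and Lpl, against 44.0% of all genes tested. With the slide as a block Adipoq was called and Cebpa was not (7.84% of all genes). Since the list was drawn up with this contrast in view, nothing is read from these shares. The median difference of the 8 was −0.04, the same to 2 decimals as that of all 17758 genes. Scaling on spike-in probes moved the median of all genes to 0.19, and on that scale Adipoq stood at 2.40, Adipor1 at 0.17, Adipor2 at 0.23, Pparg at 0.13, Cebpa at −0.39 and Lpl at 0.40.

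The wider programme was described with 9 lists, of which 157 genes are not among the 10. The array had 155 of them, 18 were not detected on any array, and 119 were in the fit. Of these 13 rose and 24 fell, 31.1% in all against the 23.3% of all genes tested, while 82 did not pass. Their median was −0.01 against −0.04 for all genes. With the slide as a block 3 rose and 9 fell (again 7.84% of all genes), with spike-in scaling 9 rose and 0 fell (6.10% of all genes), and without control replicate 3 the counts were 6 and 8 (9.19% of all genes). The calls of 5 raised and 8 lowered genes held when each array was left out in turn. Of those, 3 raised and 7 lowered calls also held with the slide as a block, among them the raised Ncoa1, Ncor1 and Calr and the lowered Rxra, Cav1, Scd2, Apln, Vegfa and Irs1.

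For the list counts here and below, 9.87% of all genes tested rose and 13.4% fell. Among 19 tested factors that promote fat cell formation, 5 rose and 3 fell. Ncoa1, a coactivator of nuclear receptors, rose by 0.45 ± 0.04 (limma adjusted p 0.0026). Its call held without each array, with the slide as a block and with either other scaling (median or spike-in). The average of its probes gave the same 0.45, so that alternative was no separate check for Ncoa1. Of these lists it was the only gene whose call held in all of these fits. Mlxipl, the carbohydrate-responsive factor ChREBP, rose by 0.29 ± 0.04 on its brightest probe, but its call was lost with the slide as a block and the mean over its probes was −0.14. Rxra, the nuclear receptor that pairs with PPAR-gamma, fell by 0.43 ± 0.05, a call that was lost with the mean over its probes (−0.17). The other 5 calls were lost with the slide as a block and on leaving out 2 or more single arrays. Zfp467 was higher by 0.57, Cebpd by 0.28 and Zfp423 by 0.23, whereas Ebf1 was at −0.68 and Cebpb, the early C/EBP factor, at −0.44. Ppargc1a was not detected. Among 13 tested factors that restrain fat cell formation, 2 rose and none fell. Ncor1, a corepressor of nuclear receptors, rose by 0.54 ± 0.07, but the mean over its probes was 0.01. Gata2 was at 0.17, a call lost without any 1 of 5 of the 6 arrays.

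**Figure D3:**
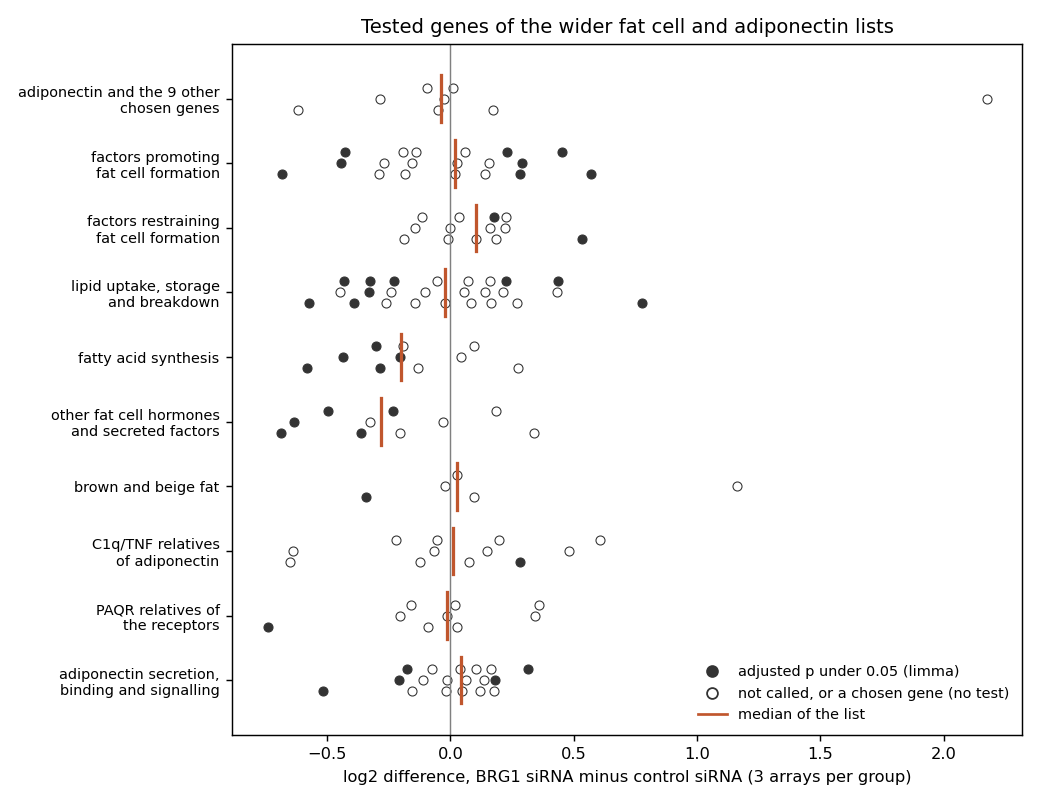
Log2 difference between BRG1 siRNA and control siRNA for each tested gene of the 9 wider lists and, in the top row, for the 8 tested genes of the chosen 10, with filled dots for an adjusted p under 0.05 and a bar at each list's median. Adipoq is the point at 2.17, and the 119 genes of the wider lists lie between −0.74 and 1.16.

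Genes of lipid uptake, storage and breakdown went both ways, with 3 that rose and 6 that fell of 25 tested (9.87% and 13.4% of all genes). Cav1, the caveolar coat protein, fell by 0.58 ± 0.05 (adjusted p 0.00212), a call lost with the mean over its probes (−0.38, adjusted p 0.204), and Bscl2, the lipid droplet protein seipin, rose by 0.43 ± 0.07. Bscl2 and Angptl4 (−0.43) held when each array was left out, but both were lost with the slide as a block. The lipid droplet protein Plin2, named Adfp on the array, was at −0.39 and the insulin-responsive glucose transporter Slc2a4 at −0.33. Both were lost with the slide as a block. The call of Adfp was also lost without control replicate 2 or 3 (adjusted p up to 0.0548), and that of Slc2a4 in 5 of the 6 fits without an array (up to 0.123). Adrb3, a receptor that starts lipid breakdown in fat cells, was at 0.78 ± 0.17, a call kept in 1 of 6 fits without an array. Cd36 and Pck1 were not detected on any array, and Plin1, the droplet coat of mature fat cells, was detected on 1.

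Of 10 fatty acid synthesis enzymes, 5 fell and none rose (13.4% and 9.87% of all genes), with a median of −0.20. The desaturase Scd2 fell by 0.58 ± 0.05 (adjusted p 0.00234). The calls for Scd1 (−0.30), Acss2 (−0.29), Elovl5 (−0.21) and Me1 (−0.43, Mod1 on the array) were lost with the slide as a block and in 3 to 5 of the 6 fits without an array (adjusted p up to 0.102). Other hormones and secreted factors of fat cells likewise had 5 that fell and none that rose of 10 tested, while 5 of the 20 were not detected on any array, among them Fgf21, Lcn2 and Retnla. Apln (−0.69 ± 0.09) and Vegfa (−0.50 ± 0.07), a peptide hormone and a growth factor for blood vessels, kept their calls without each array and with the slide as a block. The call of Apln was lost with the mean over its probes (−0.52, adjusted p 0.207) and that of Vegfa with median scaling (−0.44, adjusted p 0.0567). Rbp4 was at −0.36 and Gas6 at −0.23, with calls lost with the slide as a block and in at least 3 of the 6 fits without an array. With spike-in scaling none of the 24 lowered genes was called, and Scd2 stood at −0.36 and Apln at −0.46 ± 0.21 there.

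Of 16 brown and beige fat genes 8, Cox8b, Dio2, Elovl3 and Ucp3 among them, were not detected on any array, 5 were detected on all 6, and Ucp1, the uncoupling protein that defines brown fat, was detected on 2. Of the 5 tested, Ucp2 was called, at −0.34 ± 0.05, and the call was lost with the slide as a block. Tbx1 was at 1.16 ± 0.48 and did not pass.

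The relatives of adiponectin and of its receptors did not share its difference. For the counts here, 23.3% of all genes tested were called. Of 12 tested C1q/TNF genes, 1 was called: Emilin1, at 0.28 ± 0.07, a call kept in 1 of 6 fits without an array. C1qtnf6 was at 0.61 ± 0.24, Cbln2 at 0.48 ± 0.21, C1ql2 at −0.65 ± 0.21 and C1qtnf1 at −0.64 ± 0.32, none of which passed. With the slide as a block C1ql2 was called, at −1.13, though only 1 BRG1 siRNA array detected it. Of 9 tested PAQR genes, relatives of Adipor1 and Adipor2, 1 was called, the progestin receptor Paqr8 at −0.74 ± 0.13. Its call was lost with the slide as a block and without control replicate 2 or 3 (adjusted p up to 0.0641). Of 18 genes of adiponectin secretion, binding and signalling, 2 rose and 3 fell. Irs1, the insulin receptor substrate, fell by 0.52 ± 0.05 (adjusted p 0.00284), and Calr, the chaperone calreticulin, which also binds adiponectin on the cell surface, rose by 0.32 ± 0.04. The call of Irs1 was lost with the mean over its probes (−0.59, adjusted p 0.165), and that of Calr with median scaling (0.37, adjusted p 0.0651) and spike-in scaling (0.54, adjusted p 0.101). Ero1a, an oxidase that helps release adiponectin from the endoplasmic reticulum (Ero1l on the array), was at 0.18, Cpt1a at −0.21 and Cdh13, the T-cadherin that binds adiponectin, at −0.18. These 3 calls were lost with the slide as a block and in at least 5 of the 6 fits without an array, and Cpt1a and Cdh13 were above 0 with spike-in scaling.

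Markers of cells that could carry fat cell transcripts were read in the same way. For all the marker counts here, 9.87% of all genes tested rose and 13.4% fell. Of 13 tested fibroblast and preadipocyte markers, 2 rose and 7 fell. Their summed signal, as a percentage of each array's 75th percentile, was 1030 to 1070 in controls and 809 to 871 with BRG1 siRNA, with no overlap. Thy1 (−0.79), Col3a1 (−0.73), Cd34 (−0.55) and Ly6a (−0.43), markers of stroma that holds preadipocytes, fell, and Mgp (1.17 ± 0.12) and Lox (0.75 ± 0.07), matrix genes, rose. These 6 calls held without each array and with the slide as a block, and the 4 lowered ones were lost with spike-in scaling, Col3a1 also with the mean over its probes. Pdgfra, the receptor that marks adipocyte precursors, was detected on 2 arrays. Of 4 tested macrophage markers Cd68, the brightest, rose by 0.47, while Itgam (−1.35), Csf1r (−0.57) and Cd14 (−0.02) did not pass. The sum of all 4, mostly Cd68, ran from 54.3 to 61.4 in controls and from 66.1 to 69.9 with BRG1 siRNA. Of 8 trophoblast markers 2 rose, Hand1 (0.79) and Tfap2c (0.30), and 3 fell, Cdx2 (−0.95), Krt7 (−0.79) and Eomes (−0.66). Their sums were 935 to 1010 in controls and 1030 to 1090 with BRG1 siRNA. Tfap2c (Tcfap2c on the array) was the brightest, at a log2 level of 2.86 in controls against 0.44 for Krt7, the next. The call of Tfap2c was lost with the slide as a block, while the other trophoblast calls held. Of 6 endothelial markers 2 rose and 3 fell, and of 7 endoderm markers 1 fell, with sums that overlapped between groups. Of 12 stem cell markers 3 rose and 1 fell, with sums of 48400 to 49000 and 48700 to 50500 that overlapped. Utf1 was at 0.43, Nanog at 0.41, Klf4 at 0.34 and Pou5f1 at −0.33, and each of these calls was lost without at least 2 single arrays. With the slide as a block 7.84% of all genes were called. In that fit 1 stem cell marker (Utf1) and 1 endothelial marker (Sox18) remained called, both as higher, and no endoderm marker was called. Adipoq was higher where the summed stromal markers were lower. The summed macrophage and trophoblast markers were higher, but these sums rest mostly on Cd68 and on Tfap2c. The median differences of these 2 lists were −0.30 and −0.09. The part of these marker shifts in the Adipoq difference was not tested.

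The genes around Adipoq were read next. Within 500 kb of its probe in mm7 the array names 17 other genes, of which 11 were tested, none rose and 5 fell, where 9.87% of all genes tested rose and 13.4% fell. The nearest tested genes, both of general cell function, were Rfc4, a clamp loader subunit at −43.6 kb (−0.16 ± 0.06, adjusted p 0.0995), and the helicase Eif4a2 at −44.1 kb (−0.20 ± 0.06, adjusted p 0.0641). On the other side the nearest tested gene was the sialyltransferase St6gal1 at 202 kb, with a difference of 0.05 ± 0.07. Ahsg and Fetub, the liver glycoproteins fetuin-A and fetuin-B, fell by 1.00 ± 0.06 and 0.77 ± 0.07, and Tbccd1 fell by 0.45 ± 0.06, all with the slide as a block and without each array in turn as well. With spike-in scaling the calls of Fetub, Tbccd1 and Kng1 were lost (adjusted p 0.0944, 0.549 and 0.59). Rtp4 was at −1.02 ± 0.17 and Kng1 at −0.43 ± 0.09. Both calls were lost when control replicate 2, control replicate 3 or the second BRG1 siRNA array was left out, with adjusted p up to 0.0573 for Rtp4 and 0.0866 for Kng1, and that of Kng1 also without the first control array, with median scaling (adjusted p 0.0514) and with the mean over its probes (−0.12, adjusted p 0.492).

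**Figure D4:**
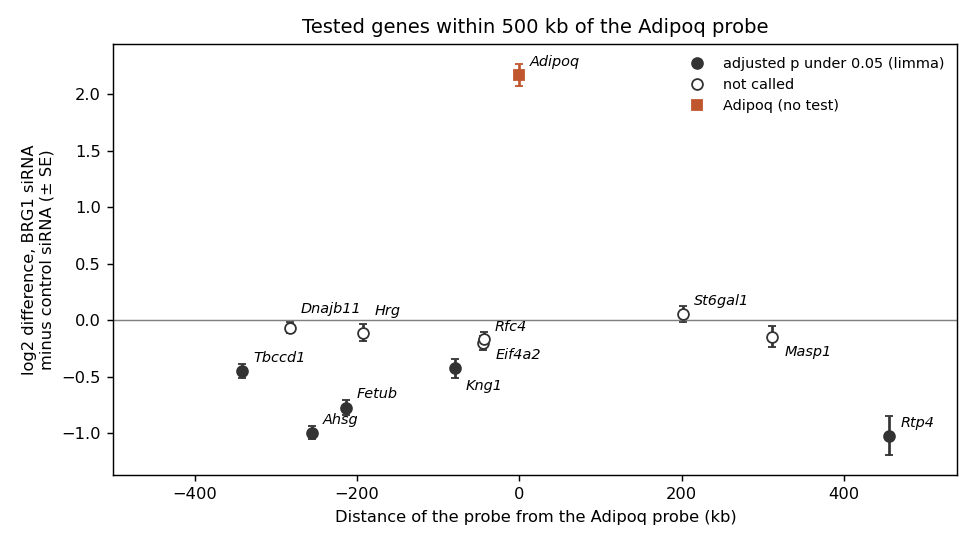
Log2 difference between BRG1 siRNA and control siRNA (± SE, 3 arrays per group) of the 11 tested genes within 500 kb of the Adipoq probe, by the distance of their probes from it. Adipoq at 2.17 is the point well above 0, and the neighbours lie between −1.02 and 0.05.

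The 5 genes most like Adipoq over the 6 arrays were Ung2, Tlr2, Mov10, 3100002J23Rik and Runx1t1, by the Pearson correlation of log2 signals among the 94 genes that differed by at least 1 on the log2 scale and were detected on every BRG1 siRNA array. The correlations, 0.995 to 0.998 over 6 arrays, mostly restate that both genes of a pair differed between the same groups of 3, and 40 of the 94 candidates were higher with BRG1 siRNA. The one with the largest fold was 3100002J23Rik, which read 2020, 2410 and 2360 in controls and 8050, 7900 and 8110 with BRG1 siRNA (3.67-fold). Ung2 read 3820, 4090 and 3680 in controls and 7840, 7560 and 7660 with BRG1 siRNA. The innate immune receptor Tlr2, the RNA helicase Mov10 and the transcriptional corepressor Runx1t1 were 2.04-fold, 2.03-fold and 2.09-fold higher. None of the 5 is on the lists of fat cell genes used here, but the threshold left little room for such genes. The wider lists ran from −0.74 to 1.16, and of their tested genes Tbx1 alone (1.16) reached it. Nothing is thus read from this absence.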

How the data were processed

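Total RNA of mouse embryonic stem cells was profiled on 6 single-colour arrays of Agilent design 014868, 3 per group, with groups taken from the treatment labels. The authors deposited linear intensity per spot. It was made with Agilent Feature Extraction, version 9.5.3.1 per the file headers and 9.5 per the submitters' processing notes, and the processed signal used here is background-subtracted but not scaled between arrays. The deposited value table held the same intensity values (largest difference 0). Probe positions are those of the files, mm7.

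Control spots (1639 of 45018) and outlier spots were left out, each array's 75th percentile was subtracted on the log2 scale, and spots of a probe were averaged. A gene was read from its probe with the highest mean, and tested with limma 3.58.1 (R 4.3.3; lmFit, eBayes, two-sided, Benjamini-Hochberg over 17758 genes) if all 3 arrays of a group had that probe well above background. The SE of a single probe came from the same fit over all 41174 probes. The code was tested on simulated data.

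The 10 genes, the gene lists and the rule for named genes (every probe of the 10, Smarca4, up to 4 genes per list and direction with the largest change, 5 genes most like Adipoq, tested genes within 500 kb) were chosen with earlier results of these data known. Listed genes were matched by name, older name or, for 8, RefSeq accession. Additional genes are named where a count called for it, after their values were seen. Alternatives covered background correction, scaling, the filter, the slide, the replicate numbers, averaging over probes and leaving out arrays. A gene that the rule names is not reported here. The number of arrays limits the precision.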

Additional observations from a re-analysis of the deposited data

How the results depend on the processing

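The Adipoq difference of 2.17 kept its direction under every alternative run, at 1.83 with normexp background correction, 2.40 with spike-in scaling and 2.08 to 2.25 without 1 array. The counts depended more on the choices. Against 4139 genes called, there were 1734 with median scaling, 1083 with spike-in scaling (72.3% of them higher, against 42.3%), 1740 without the filter on dim probes, 1392 with the slide as a block, 59 on the first slide alone, 2585 with the mean over probes and 1641 to 4413 without 1 array. The count of 13 raised genes of the wider lists became 6 with median scaling, 9 with spike-in scaling and 5 without the filter. It was 3 with the slide as a block and 5 to 13 without 1 array. The 9 were not all among the 13, as 5 genes of the wider lists kept their call with spike-in scaling. The count of 24 lowered genes became 8 with median scaling, 0 with spike-in scaling, 13 without the filter and 9 with the slide as a block. It was 13 with the mean over probes and 8 to 25 without 1 array. The deviations of arrays with the same replicate number correlated at −0.31, 0.11 and −0.02, and those of unlike numbers at −0.34 to 0.34. Deviations within a group cancel out, so these values do not settle whether the replicate numbers pair the arrays. A replicate block gave 1945 calls, 1881 of them shared with the fit without it, and 5 raised and 13 lowered genes of the wider lists. With spike-in scaling Amn (0.0135), Tek (0.0125), Cpt1a (0.0159), Elovl5 (0.0188) and Cdh13 (0.05) turned above 0. With the mean over probes Pecam1 was at 0.25, Mlxipl at −0.14 and Gpd1 at −0.55. Spike-in scaling shifts all genes by the same amount on an array, and it also widened the SE, for Smarca4 from 0.06 to 0.21. Calr grew from 0.32 to 0.54 there and still lost its call (SE 0.04 and 0.21). A call lost with spike-in scaling thus does not by itself show a smaller difference. The first slide alone has 1 array with BRG1 siRNA. For the other alternatives the cause was not tested. Of the 65 other named genes, 63 lost their call on the first slide alone, 31 with the slide as a block and 41 with spike-in scaling, which turned the direction of 4 more. Lep and Cfd lie below what these arrays detect.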
